A study of Mus musculus with 6 samples.

Results

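A set of 36 human genes was measured in LAPC-4 prostate tumors. It comprised the NF-kB subunits and their inhibitors, genes that NF-kB switches on, chemokines and immediate early genes. The genes were picked by Ensembl identifier from the 60649 genes of a count table, each identifier matched 1 row, and 33 of the 36 had enough reads to be tested.

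LAPC-4 is a human, hormone-sensitive prostate cancer line with a wild-type androgen receptor. Its cells were mixed with Matrigel and grown in the flank of male CB.17 scid/scid mice, a strain without mature B and T cells. The mice were bought at a few weeks of age and ate the HiGI diet until randomization, at a mean tumor volume of 200 mm3. From then on both groups ate a Western diet with the same share of energy from carbohydrate, taken from sucrose in the HiGI diet (labelled hgw) and from Hylon-VII, a starch rich in amylose, with maltodextrin in the LoGI diet (lgw). According to the paper, mice were sacrificed after a fast, once their tumor had reached a set volume. The time on the diet could therefore differ between mice. RNA-sequencing covered 3 tumors per diet, each from 1 mouse, namely HiGI tumors 16, 20 and 26 and LoGI tumors 19, 27 and 28. The model rests on 1 cell line, and the genes that mark prostate epithelium, leukocytes, vessels and fibroblasts were not looked up here.

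NF-kB is a family of transcription factors held in the cytoplasm by IkB proteins until signals such as TNF, IL-1 or bacterial products lead to their destruction. The released dimers then switch on chemokines, cytokines, adhesion molecules and survival factors, together with inhibitors that shut the response off again. RELA with p50 (from NFKB1) carries the classical arm, and RELB with p52 (from NFKB2) the slower alternative arm. Immediate early genes such as FOS, JUN and EGR1 are transcribed within minutes of a stimulus without new protein synthesis, and their products, several of them parts of the AP-1 factor, often act beside NF-kB at the same genes. In prostate cancer, NF-kB activity has been studied mainly for its link to growth under low androgen and to the recruitment of immune cells.

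Levels are given as CPM, counts scaled to library size with TMM (a normalization for library composition), and can be compared between tumors but not between genes, since gene length was not used. Libraries held 18749813 to 21550812 reads, so that 3 reads, taken as the limit of detection, correspond to 0.138 to 0.160 CPM. A gene was called when its adjusted P in edgeR's quasi-likelihood test (Benjamini-Hochberg over all genes tested) was under 0.05 and its log2 fold change, LoGI over HiGI, was at least 1 in size. The 36 genes were chosen with earlier results of these data known. The shares over all genes are therefore given as a description, and no test of the set was run. Among the 36 genes, 16 were called lower in LoGI tumors, against 3.38% of the 24545 genes tested. None was called higher, against 0.0733% of all genes tested. None of the 33 was higher at an unadjusted P under 0.05 in edgeR (4.33% of all genes) or called higher by DESeq2 (0.0611%). A further 4 genes had an adjusted P under 0.05 in edgeR with a smaller decrease, which made 20 lower genes without the fold minimum, against 4.36% of all genes. None of the 36 was higher by that rule, against 0.367% of all genes. For 20 genes every LoGI tumor lay below every HiGI tumor, against 10.9% of all genes tested. The median log2 fold change was -0.95 over the 33 tested genes and 0.00335 over all genes. The value of -0.95 was that of CXCL10, a gene with 33 reads over the 6 tumors. The 16 genes called lower all lay at -1.15 or below. Of the 33, 8 had under 10 reads over the 3 LoGI tumors and reached the minimum for the test only with their HiGI reads. They were IL6, LIF, CXCL1, CXCL2, CXCL3, CXCL8, CCL2 and LCN2. All 8 were called lower, against 10.1% of the 3284 tested genes with so few LoGI reads. Those genes were not matched to the 8 on HiGI reads, so the shares are not a like comparison. With so few LoGI reads, a gene of many HiGI reads could hardly be called otherwise. Of the other 25, 8 were called lower, against 2.33% of the 21261 tested genes with 10 or more LoGI reads. In bulk tumors, fewer cells of a type and less RNA per cell cannot be told apart.

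**Figure D1:**
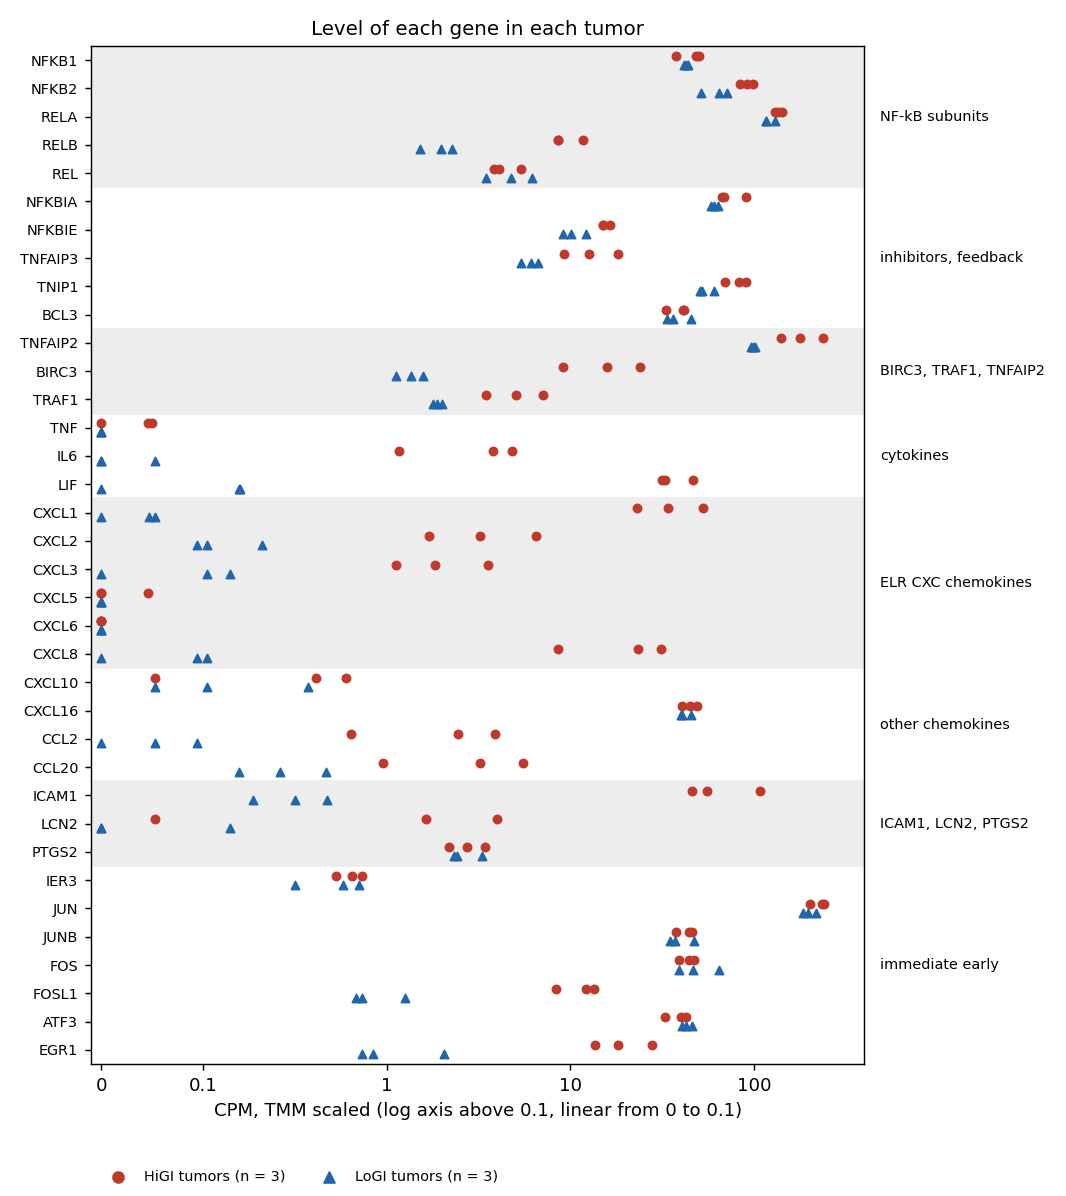
Level of each of the 36 genes (rows, grouped by role) in the 3 HiGI tumors (red circles) and the 3 LoGI tumors (blue triangles), in TMM-scaled CPM on an axis that is logarithmic above 0.1 and linear below. CXCL1, CXCL8, LIF and ICAM1 stood at 8.56 to 108 CPM in HiGI tumors and at 0 to 0.473 CPM in LoGI tumors, while RELA, JUN, FOS and ATF3 overlapped between diets.

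Of the 5 subunits, RELB was called lower and the other 4 were not called. RELB (ENSG00000104856.14), which pairs with p52 in the alternative arm, stood at 11.8, 8.56 and 8.56 CPM in HiGI tumors 16, 20 and 26. In LoGI tumors 19, 27 and 28 it stood at 1.52, 1.97 and 2.26. Every LoGI tumor was below every HiGI tumor, and the HiGI mean was 5.04-fold that of LoGI (log2 fold change -2.33, DESeq2 standard error 0.24, edgeR adjusted P = 2.32e-06). NFKB2, the gene of p100 and p52, fell less, from 91.5 ± 7.76 to 62.6 ± 10.3 CPM (SD, n = 3 per diet), a log2 fold change of -0.55 with an adjusted P of 0.00894 in edgeR, and the diets did not overlap. Without LoGI tumor 27 the adjusted P of NFKB2 in edgeR was 0.064. RELA, the subunit with the most reads, stood at 143, 130 and 136 CPM in HiGI tumors and at 116, 117 and 130 in LoGI tumors. The diets overlapped for RELA, and DESeq2 put the 95% interval of its log2 fold change at -0.36 to 0.02. NFKB1 and REL also overlapped, with intervals of -0.33 to 0.16 and -0.38 to 0.62. Changes of the size seen for RELB lay outside these 3 intervals.

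Among the 5 inhibitors and feedback genes, TNFAIP3 was called lower. TNFAIP3 (ENSG00000118503.15) encodes A20, a ubiquitin-editing enzyme that ends NF-kB signaling. It stood at 18.3, 12.7 and 9.25 CPM in HiGI tumors 16, 20 and 26 and at 6.66, 5.38 and 6.09 in LoGI tumors 19, 27 and 28. The log2 fold change of TNFAIP3 was -1.15 (DESeq2 standard error 0.22, edgeR adjusted P = 0.00258), and without HiGI tumor 16 it was -0.87, below the fold minimum. TNIP1, whose product binds A20, fell from 81.1 ± 10.5 to 54.7 ± 5.48 CPM (SD, n = 3), and NFKBIE, the gene of IkB-epsilon, from 15.5 ± 0.752 to 10.5 ± 1.58. Their log2 fold changes were -0.57 and -0.56, with adjusted P of 0.00462 and 0.0264 in edgeR. With 1 tumor left out in turn, the adjusted P in edgeR reached at most 0.0471 for TNIP1. For NFKBIE it ran from 0.0099 to 0.169, so that its decrease did not pass in every fit. NFKBIA, the gene of IkB-alpha and the best known NF-kB target among the inhibitors, stood at 90.5, 67.0 and 69.1 CPM in HiGI tumors and at 58.3, 60.8 and 63.6 CPM in LoGI tumors. The LoGI tumors lay below the HiGI tumors, but the log2 fold change of -0.31 did not pass the test (edgeR adjusted P = 0.187). BCL3, an atypical IkB protein that acts in the nucleus, had means of 38.8 ± 4.66 and 38.6 ± 6.18 CPM (SD, n = 3).

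BIRC3 and TRAF1, which act together at TNF receptors, were both called lower. BIRC3 (ENSG00000023445.16) encodes the ubiquitin ligase cIAP2, which blocks cell death and feeds into NF-kB activation. It was at 24.1, 15.8 and 9.15 CPM in HiGI tumors 16, 20 and 26 and at 1.36, 1.12 and 1.58 in LoGI tumors 19, 27 and 28. That was a 12.1-fold difference of means (log2 fold change -3.60, DESeq2 standard error 0.45, edgeR adjusted P = 1.43e-06). TRAF1 (ENSG00000056558.11), an adaptor that binds cIAP2, was at 7.13, 5.08 and 3.46 CPM in HiGI tumors and at 1.89, 1.78 and 2 in LoGI tumors. Its log2 fold change was -1.47 (DESeq2 standard error 0.30, edgeR adjusted P = 0.00187). For both genes the diets were separate, and the 3 LoGI tumors lay closer together than the 3 HiGI tumors. TNFAIP2, a gene induced by TNF, was at 238, 178 and 140 CPM in HiGI tumors and at 99.5, 102 and 96.3 in LoGI tumors. Its adjusted P in edgeR was 0.000622, and its log2 fold change of -0.90 stayed short of the fold minimum with all tumors and reached -1.06 without HiGI tumor 26.

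Both cytokines that could be tested were called lower. Each had under 10 LoGI reads and reached the minimum for the test only with its HiGI reads. Of all tested genes with so few LoGI reads, 10.1% were called lower, a share that was not matched on HiGI reads. LIF (ENSG00000128342.5), a secreted cytokine of the IL-6 family, was covered by 1012, 662 and 596 reads in the HiGI group (tumors 16, 20 and 26) and by 3, 0 and 3 in the LoGI group (tumors 19, 27 and 28). No LoGI tumor rose above the 3-read limit. The ratio of HiGI to LoGI reads, scaled to library size, was 371 with a 95% interval of 170 to 1010 (exact binomial, counting error only). Its log2 fold change was -8.43 (DESeq2 standard error 0.61, edgeR adjusted P = 2.36e-10) and -7.82 without LoGI tumor 27, which had no LIF read. IL6 (ENSG00000136244.12), the acute phase cytokine that signals through STAT3, was covered by 105, 76 and 22 reads in the HiGI group and by 0, 0 and 1 in the LoGI group. Its reads differed by a ratio of 199 (95% counting interval 35.3 to 7900), with an adjusted P of 2.21e-05 in edgeR. The fitted log2 fold change of IL6 was -7.16 and became -9.06 without LoGI tumor 28, which held the single read. Without LoGI tumor 27 it was -6.65. TNF itself had 1 read in each of HiGI tumors 16 and 20 and 0 in the other tumors, so no fold is given for it.

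All 4 testable chemokines with an ELR motif, which draw neutrophils through the receptors CXCR1 and CXCR2, were called lower. Each of the 4 had under 10 LoGI reads and reached the minimum for the test only with its HiGI reads. Of all tested genes with so few LoGI reads, 10.1% were called lower, a share that was not matched on HiGI reads. The log2 fold changes of the 4 chemokines ran from -9.85 to -4.60, and that of CXCL1 was the lowest of the 33 genes tested. CXCL1 (ENSG00000163739.5) was covered by 1147, 688 and 436 reads in the HiGI group (tumors 16, 20 and 26) and by 0, 1 and 1 in the LoGI group (tumors 19, 27 and 28). The ratio of reads was 1110 (95% counting interval 308 to 9200) and the fitted log2 fold change -9.85 (DESeq2 standard error 1.04, edgeR adjusted P = 2.53e-09). Only 6 of the 24545 tested genes had a lower fitted log2 fold change. CXCL8 (ENSG00000169429.11), the gene of interleukin-8, has no direct counterpart in the mouse genome. Its reads numbered 680, 469 and 161 in the HiGI group and 0, 2 and 2 in the LoGI group, a ratio of 321 (95% counting interval 125 to 1180). Its log2 fold change was -8.17 (DESeq2 standard error 0.78, edgeR adjusted P = 3.17e-07).

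CXCL2 (ENSG00000081041.9) and CXCL3 (ENSG00000163734.4) are close relatives of CXCL1, and reads that fit more than 1 of the 3 may have been divided between them by the authors' counting. Reads of CXCL2 numbered 142, 65 and 32 in the HiGI group and 2, 2 and 4 in the LoGI group, with tumors in the order given above. Those of CXCL3 numbered 77, 37 and 21 in the HiGI group and 2, 3 and 0 in the LoGI group. For both, every HiGI tumor had more reads than any LoGI tumor, with adjusted P of 3.88e-05 and 0.000157 in edgeR. Their log2 fold changes of -4.77 and -4.60 became -4.14 for CXCL2 and -4.05 for CXCL3 without HiGI tumor 16. That of CXCL3 was -5.21 without LoGI tumor 27. Summed over the 6 genes of this kind, the CPM were 94.1, 62.7 and 34.6 in the HiGI tumors and 0.210, 0.374 and 0.368 in the LoGI tumors. CXCL5 had 1 read in HiGI tumor 16 and none elsewhere, and CXCL6 had 0 reads in all 6 tumors, which allows up to 3 reads, or 0.160 CPM, in the library where that limit is highest.

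The other 4 chemokines did not move together. CCL2 (ENSG00000108691.9), which attracts monocytes, was covered by 85, 49 and 12 reads in the HiGI group (tumors 16, 20 and 26) and by 1, 2 and 0 in the LoGI group (tumors 19, 27 and 28). CCL2 had under 10 LoGI reads and reached the minimum for the test only with its HiGI reads. The ratio of reads was 47.7 (95% counting interval 16 to 234), and the log2 fold change of -5.38 (edgeR adjusted P = 0.000313) was -4.78 without HiGI tumor 16 and -6.17 without LoGI tumor 27. CCL20 (ENSG00000115009.13), the ligand of CCR6 on dendritic cells and some lymphocytes, was covered by 121, 65 and 18 reads in the HiGI group and by 3, 10 and 5 in the LoGI group. Its log2 fold change of -3.42 (edgeR adjusted P = 0.00115) was -2.78 without HiGI tumor 16. CXCL16, a chemokine made as a membrane protein, was at 44.7, 40.7 and 49.2 CPM in HiGI tumors and at 40.2, 40.5 and 45.7 in LoGI tumors. The diets overlapped for CXCL16, and its 95% interval in DESeq2 ran from -0.31 to 0.14. CXCL10, a chemokine induced by interferons, had 1 to 12 reads per tumor, and the depth does not allow a difference to be read from it (95% interval -2.94 to 0.98).

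ICAM1 and LCN2 were called lower, and PTGS2 was not. ICAM1 (ENSG00000090339.9), the adhesion molecule that leukocytes bind through integrins, was at 108, 55.8 and 46.3 CPM in HiGI tumors 16, 20 and 26. It was at 0.315, 0.187 and 0.473 in LoGI tumors 19, 27 and 28, which was 6, 4 and 9 reads. The HiGI mean was 215-fold that of LoGI (log2 fold change -7.75, DESeq2 standard error 0.58, edgeR adjusted P = 3.35e-09). LCN2 (ENSG00000148346.12), which binds bacterial iron carriers, was covered by 87, 33 and 1 reads in the HiGI group and by 0, 3 and 0 in the LoGI group, so that HiGI tumor 26 lay within the LoGI range. LCN2 had under 10 LoGI reads and reached the minimum for the test only with its HiGI reads. LCN2 passed in edgeR (log2 fold change -5.10, adjusted P = 0.0133) but not in DESeq2 (adjusted P = 0.171), and its standard error of 2.11 was the largest of the 33 genes. Its edgeR log2 fold change was -3.94 without HiGI tumor 16 (adjusted P = 0.0662) and -8.25 without LoGI tumor 27, and its call was also lost without LoGI tumor 19 (adjusted P = 0.0887) or LoGI tumor 28 (adjusted P = 0.0518). PTGS2, the gene of cyclooxygenase-2, had means of 2.79 ± 0.635 CPM in HiGI and 2.69 ± 0.536 in LoGI tumors (SD, n = 3), with a 95% interval of -0.64 to 0.53 for its log2 fold change in DESeq2.

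Of the 7 immediate early genes, EGR1 and FOSL1 were called lower and the other 5 were not called. EGR1 (ENSG00000120738.8), a zinc finger factor induced by growth factor signaling, was at 27.7, 13.7 and 18.2 CPM in HiGI tumors 16, 20 and 26 and at 0.734, 2.06 and 0.840 in LoGI tumors 19, 27 and 28. The HiGI mean was 16.4-fold that of LoGI (log2 fold change -4.01, DESeq2 standard error 0.54, edgeR adjusted P = 5.8e-07). With 1 tumor left out, the log2 fold change of EGR1 ran from -4.64 (without LoGI tumor 27) to -3.69 (without HiGI tumor 16). FOSL1 (ENSG00000175592.9) encodes FRA-1, an AP-1 subunit that appears later than FOS after a stimulus. It was at 13.4, 12.2 and 8.40 CPM in HiGI tumors and at 0.734, 1.26 and 0.683 in LoGI tumors, a 12.7-fold difference of means (log2 fold change -3.64, DESeq2 standard error 0.29, edgeR adjusted P = 1.65e-07).

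The AP-1 subunits JUN, JUNB and FOS and the stress factor ATF3 overlapped between diets. JUN had the most reads of all 36 genes and was at 201, 235 and 241 CPM in HiGI tumors and at 198, 185 and 219 in LoGI tumors. FOS was at 44.1, 47.2 and 39.0 CPM in HiGI tumors and at 64.7, 39.0 and 46.8 in LoGI tumors, where LoGI tumor 19 was the highest of the 6. The 95% intervals of the log2 fold change in DESeq2 were -0.38 to 0.04 for JUN, -0.10 to 0.52 for FOS, -0.37 to 0.16 for JUNB and -0.08 to 0.41 for ATF3. A change as large as the fold minimum of 1 lay outside all 4 intervals. IER3, an early response gene that acts on cell survival, had 6 to 16 reads per tumor, and its interval of -1.42 to 0.91 was too wide to exclude such a decrease.

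**Figure D2:**
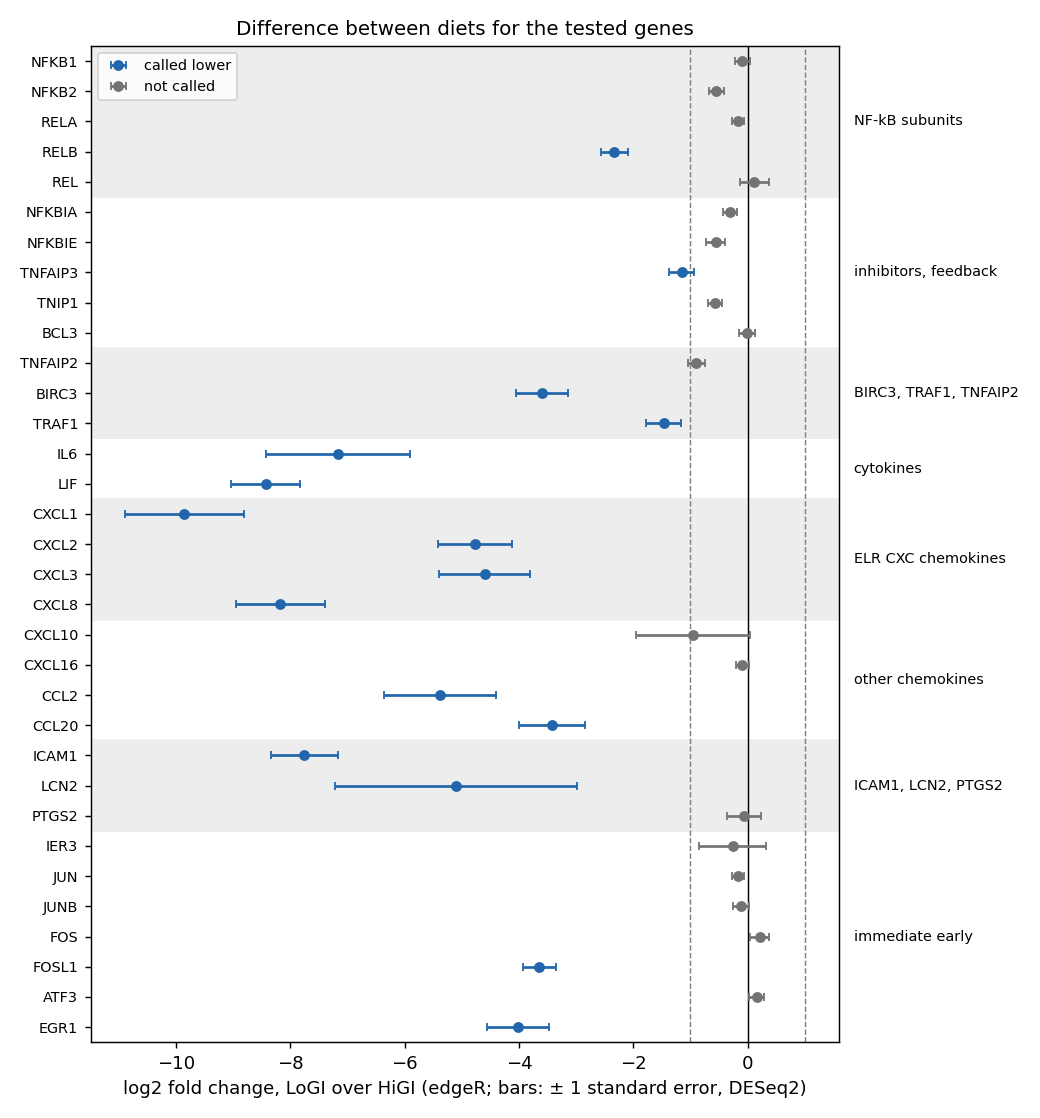
Log2 fold change (LoGI over HiGI, edgeR) of the 33 genes with at least 10 reads over the 6 tumors, grouped by role, with 1 standard error from DESeq2 on each side and dashed lines at the fold minimum. The 16 genes called lower (blue) run from -9.85 for CXCL1 to -1.15 for TNFAIP3, and the 17 genes not called (grey) lie between -0.95 and 0.21.

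Reads of related genes were also set against each other within each library, which removes the effect of library scaling. The 6 pairs were chosen with the values in view, and their ratios are a description with no test. Per 100 reads of FOS, EGR1 had 62.7, 29.1 and 46.8 in HiGI tumors 16, 20 and 26 and 1.13, 5.28 and 1.80 in LoGI tumors 19, 27 and 28. FOSL1 numbered 30.4, 25.8 and 21.6 reads per 100 of FOS in HiGI tumors and 1.13, 3.24 and 1.46 in LoGI tumors. RELB numbered 8.28, 6.57 and 6.32 reads per 100 of RELA in HiGI tumors and 1.32, 1.69 and 1.73 in LoGI tumors. These 3 ratios were higher in every HiGI tumor than in any LoGI tumor. The same separation was found for NFKB2 over NFKB1, TNFAIP3 over NFKBIA and CXCL8 over CXCL16. The NFKB2 ratio came closest to overlap, with 166 reads per 100 of NFKB1 in HiGI tumor 26 and 163 in LoGI tumor 28.

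**Figure D3:**
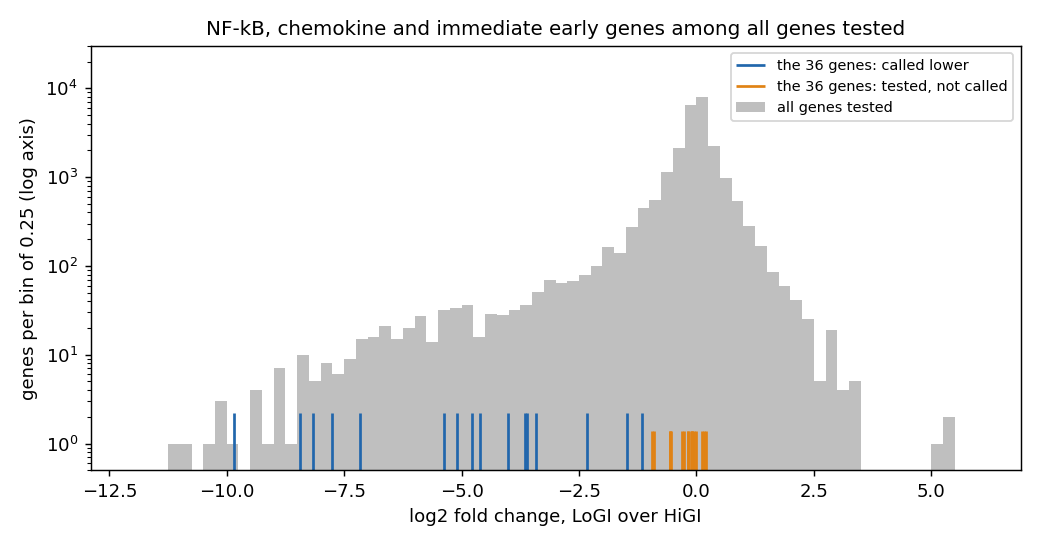
Distribution of the log2 fold change (LoGI over HiGI) of all 24545 genes tested, as genes per bin of 0.25 on a log axis, with ticks at the values of the 33 tested NF-kB, chemokine and immediate early genes. The 16 ticks of genes called lower (blue) lie in the long negative tail from -9.85 to -1.15, and the 17 others (orange) lie between -0.95 and 0.21, where most genes are.

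A pattern of 10 or more reads in each HiGI tumor with 3 or fewer in each LoGI tumor was found for 153 (0.623%) of all tested genes. Among them were 6 of the 36 genes, namely IL6, LIF, CXCL1, CXCL3, CXCL8 and CCL2. Together the 36 genes took 0.121% to 0.155% of the reads of a HiGI library and 0.0825% to 0.0913% of a LoGI library.

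The 16 genes called lower in LoGI tumors also differed among the HiGI tumors. HiGI tumor 16 had the highest level of the 3 for all 16, and HiGI tumor 26 the lowest for 14, the exceptions being RELB and EGR1. Among all 829 genes called lower, tumor 16 was the highest HiGI tumor for 46.8% and tumor 26 the lowest for 59.0%. Among the 17 tested genes that were not called, tumor 16 was highest for 8 and tumor 26 lowest for 9. The level in tumor 16 over that in tumor 26 had a median of 2.48-fold over the 16 genes, 1.26-fold over the 829 genes and 1.01-fold over all genes tested. It ran from 1.38-fold for RELB, 1.47-fold for LIF and 1.52-fold for EGR1 to 5.81-fold for CCL20, 6.12-fold for CCL2 and 75.2-fold for LCN2, whose value rests on 1 read in tumor 26. Tumor 16 was also the deeper library of the 2, at 21053807 against 18749813 reads, a gap that the scaling takes out of these levels. The part of depth in this order was not tested. Without tumor 16 the number of genes called lower was 14, with TNFAIP3 and LCN2 lost, and without tumor 26 it was 17, with TNFAIP2 added.

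**Figure D4:**
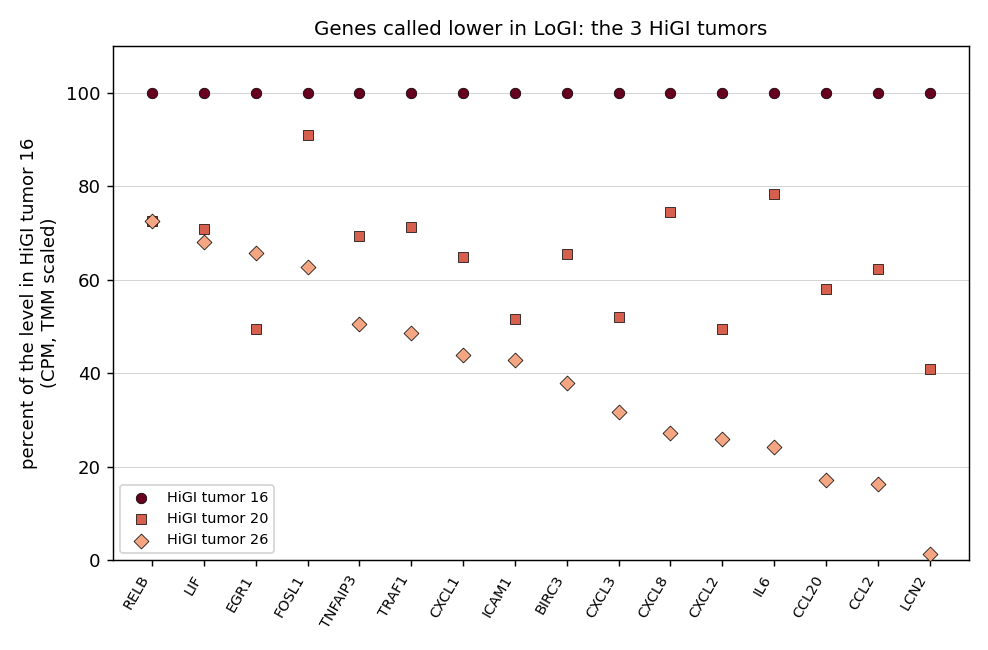
Level of the 16 genes called lower in LoGI tumors in each HiGI tumor, as a percent of the level in HiGI tumor 16 (TMM-scaled CPM), ordered from the smallest to the largest difference between tumors 16 and 26. Tumor 26 (light diamonds) lies below tumor 16 (dark circles) for all 16 genes, with folds from 1.38 for RELB to 75.2 for LCN2.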

How the data were processed

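Xenograft RNA was sequenced as stranded single-end reads of 75 bp. With BBMap, the authors compared reads with the human (GRCh38.p13) and mouse (GRCm38.p6) genomes and dropped those unique to mouse. STAR and RSEM then gave the deposited counts per human gene, which are whole numbers and not normalized. How RSEM estimates became whole numbers and whether counting used strand are not given in the sources used here. Reads that fit both species were kept. The sample labels give mouse as the organism, but the counted genes are human.

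Counts were normalized by TMM and tested with edgeR 4.0.16 (quasi-likelihood F-test, Benjamini-Hochberg adjustment) in R 4.3.3 on 24545 genes (minimum 10 reads in total over 6 tumors). The paper names edgeR, the adjusted p of 0.05 and the log2 fold change of 1. Standard errors and 95% intervals came from DESeq2 1.42.0. Within a diet, chi-square per degree of freedom between tumors was 4.91 to 12.5, so none repeated another. The labels give no batch. Alternatives are listed with their effect in the closing section.

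The 36 genes and all lists were chosen with earlier results of these data known. Values are given for every gene called and for the most read gene of each role. Symbols came with the list of identifiers. Lists of other NF-kB pathway genes, chemokines, receptors, immediate early genes and cell type markers were not analysed here, because the table gives human Ensembl identifiers and no table pairing these with symbols was used. Coordinates and sequences of the human genes are not used here.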

Additional observations from a re-analysis of the deposited data

How the results depend on the processing

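The number of the 36 genes called lower in LoGI tumors was 15 to 20 under the 7 settings that keep all tumors, and 14 to 17 with 1 tumor left out in turn. The number called higher was 0 in every fit run. The median log2 fold change of those tested ran from -1.36 to -0.83 with 1 tumor left out. Over all genes, the number called higher (18) became 39 with a filter of 1 read and 90 with no minimum fold change, and ran from 4 to 26 with 1 tumor left out. The number called lower (829) ran from 685 to 846 with 1 tumor left out. It was 678 under filterByExpr, 938 with a filter of 1 read and 1071 with no minimum fold change.

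Of 229 values of single genes under those 7 settings, 224 kept their direction and side of the threshold, under DESeq2 size factors, library totals only, filterByExpr, a filter of 1 read, a prior count of 2, the DESeq2 Wald test and no fold minimum. The exceptions were LCN2 in the DESeq2 Wald test and the 4 genes with smaller decreases that enter without the fold minimum (NFKB2, NFKBIE, TNFAIP2 and TNIP1). Of these 4, NFKB2 and NFKBIE did not keep an adjusted P under 0.05 in every fit with 1 tumor left out. LCN2 and CXCL10 could not be tested under filterByExpr. The fold minimum and the prior count do not enter the test, so changing them could not alter an adjusted P. With a prior count of 2 the calls held. The unlogged fold changes of genes with under 10 LoGI reads shrank by over 1.5-fold. On the log2 scale they were -8.11 for CXCL1, -7.53 for LIF, -6.99 for CXCL8, -4.86 for IL6, -4.07 for CXCL2, -4.03 for CCL2, -3.76 for LCN2 and -3.64 for CXCL3. With 1 tumor left out, the sign turned only for genes that were not called. Their log2 fold changes ran from -0.14 to 0.09 for BCL3, from -0.02 to 0.37 for FOS, from -0.51 to 0 for IER3, from -0.23 to 0.12 for PTGS2 and from -0.10 to 0.30 for REL. No paired analysis was run, because each tumor came from 1 mouse randomized to 1 diet and the labels pair no tumors. For changes stated without a reason, the cause was not tested. With 3 tumors per diet, genes of few reads such as CXCL10 and IER3 are limited by depth.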
